A study of Mus musculus with 20 samples.

Results

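The 10 genes described here encode the transcriptional output of the ERK kinases that switches the same pathway off again, together with a pair of transcription factors induced beside them. They are the dual-specificity phosphatases Dusp4, Dusp5 and Dusp6, the Sprouty proteins Spry1, Spry2 and Spry4, the Sprouty-related proteins Spred1 and Spred2, and the ETS factors Etv4 and Etv5. They were taken as a named list, 10 of the 18193 genes that had a probe set with a single gene symbol, and all 10 were measured. Mouse brain progenitor cell lines were profiled on 20 single-colour arrays, 1 sample to an array. The 4 groups of 5 arrays were transduced embryonic progenitors (marked in the labels as genetically modified), control embryonic progenitors, transformed postnatal progenitors and control postnatal progenitors. The labels give neither the sequence introduced nor the transforming agent, the strain, the exact age or the number of clones, and they do not say that numbered samples were separate cultures. The p-values therefore cover only the spread from sample to sample within a group, and that spread may be technical.

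ERK is the last kinase of a cascade that runs from receptor tyrosine kinases, such as those for FGF, PDGF and EGF, to the nucleus. Active ERK switches on its own inhibitors. Nuclear phosphatases (Dusp4 and Dusp5) and a cytoplasmic one (Dusp6) remove the activating phosphates from ERK, Sprouty proteins act between the receptor and the cascade, and Spred proteins restrain the activation of Raf. Etv4 and Etv5, of the Pea3 subfamily of ETS factors, are induced by FGF signals in many tissues and carry the signal to further genes. In glial progenitors these transcripts are widely used as a readout of growth factor signalling, although RNA levels are not a measurement of ERK activity itself.

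Values are deposited linear signal intensities. Changes are log2 differences of signal + 16 with the standard error of a limma fit over all genes, and a gene was called changed at a Benjamini-Hochberg adjusted p under 0.05 with a change of at least 2-fold. The background level of an array, the 95th percentile of 27 bacterial control probe sets, lay between 107.4 and 221.1. All 7 of 7 measured neural progenitor markers, among them Olig2 and Sox2, were above background on every array of every group. Their levels differed, with a mean log2 of 13.53 in embryonic transduced and 14.80 in embryonic control cells. In the embryonic response Pdgfra (-3.70), Fabp7 (-1.88) and Cspg4 (-1.77) were called lower, while Olig2 (-0.93), Sox2, Nes and Vim were not called. Markers of other cells were mixed. Aif1 and Itgam (2 of 5 microglia markers), Pecam1 (1 of 4 endothelial markers) and Mog (1 of 4 measured oligodendrocyte markers) were at or below background on all 20 arrays. Csf1r (microglia) and Mbp and Cnp (oligodendrocytes) were above it on all 20, and the other markers in these 3 lists on some arrays. Of 4 fibroblast markers, 3 were above background on all 5 embryonic control arrays, 1 in embryonic transduced and 0 in either postnatal group. Col1a1 (-1.77) and Col1a2 (-1.11) were called lower in postnatal than in embryonic control, and Dcn and Lum were not called. The 4 measured proliferation markers (Mki67, Top2a, Cdk1, Kif11) set arrays 4 and 5 of postnatal control apart, with mean log2 values of 14.75, 14.70, 14.73, 11.96 and 11.71 on arrays 1 to 5. Calls of the 10 genes and of named pathway genes that are lost without those arrays in the postnatal response are given beside the value. In bulk samples, fewer cells of a type and less RNA per cell cannot be told apart.

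**Figure D1:**
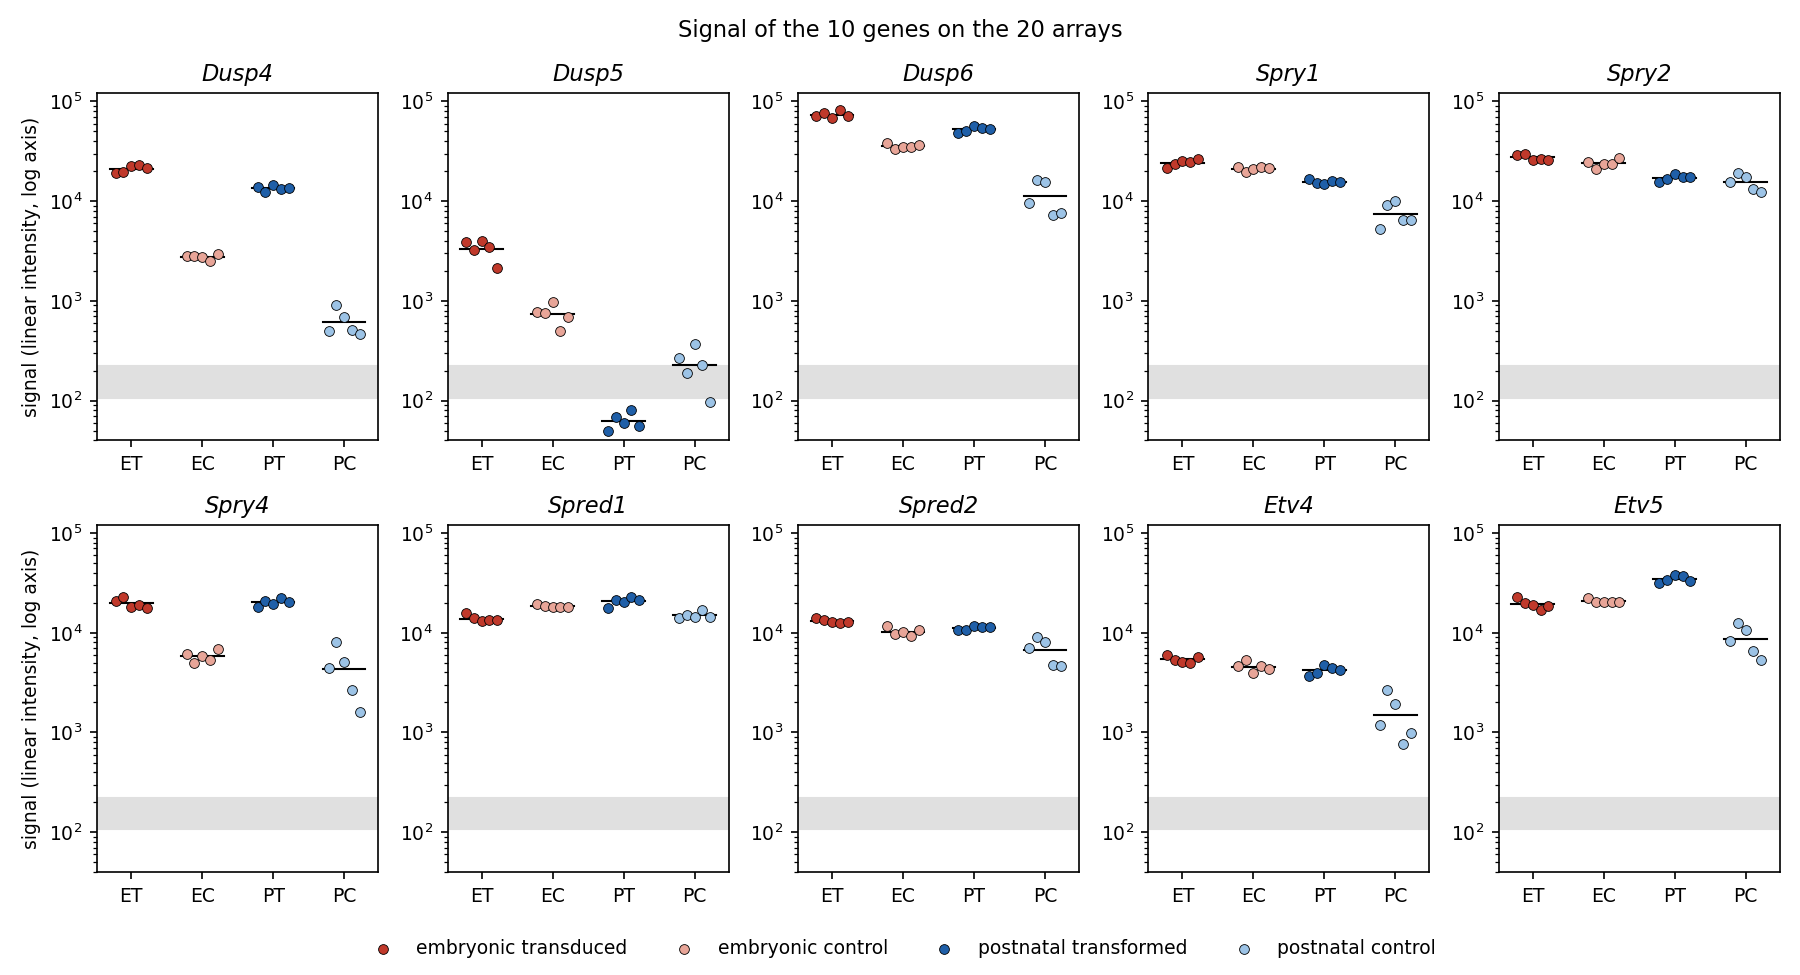
Signal (linear intensity on a log axis) of each of the 10 genes on each array, with ET for embryonic transduced, EC for embryonic control, PT for postnatal transformed and PC for postnatal control, a line for the mean of 5 arrays and a grey band for the range of the background level (107.4 to 221.1). Dusp4 separates all 4 groups, Dusp5 lies below the band in postnatal transformed cells, and Spry2 and Spred1 differ least between groups.

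Across the groups, 8 of the 10 genes had their lowest mean in postnatal control cells, and the exceptions were Dusp5, lowest in postnatal transformed cells, and Spred1, lowest in embryonic transduced cells. The highest mean lay in embryonic transduced cells for 7 genes and in postnatal transformed cells for Spry4, Spred1 and Etv5. Neither control group held the highest mean of any of them. These orders were not counted over all genes, so no share stands beside them. The median log2 change of the 10 genes was 0.30 in the embryonic response and 1.36 in the postnatal response, where the medians of all genes were 0.08 and -0.0024.

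In embryonic progenitors, transduction was accompanied by higher RNA of all 3 phosphatases and of Spry4. These 4 of the 10 genes rose and none fell, while 14.4% of all genes were called, 8.61% of all genes as higher and 5.74% as lower. The groups did not overlap for 6 of the 10 genes, 5 higher and 1 lower, against 34.8% of all genes, 18.8% higher and 16% lower. In postnatal progenitors, transformation was accompanied by a rise in Dusp4, Dusp6, Spry1, Spry4, Etv4 and Etv5 and a fall in Dusp5, so that 7 of the 10 genes were called, 6 higher and 1 lower. Here 16% of all genes were called, 9.56% as higher and 6.40% as lower, and the groups did not overlap for 9 of the 10 genes, 8 higher and 1 lower, against 32.2% of all genes, 16.4% higher and 15.9% lower. With the fold threshold dropped, 6 of the 10 genes passed in embryonic cells (39.4% of all genes) and 9 in postnatal cells (42.3% of all genes), Spred1 and Spred2 being added in both. Without postnatal control arrays 4 and 5 the count was 6, since Spry1 then fell just short of 2-fold.

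**Figure D2:**
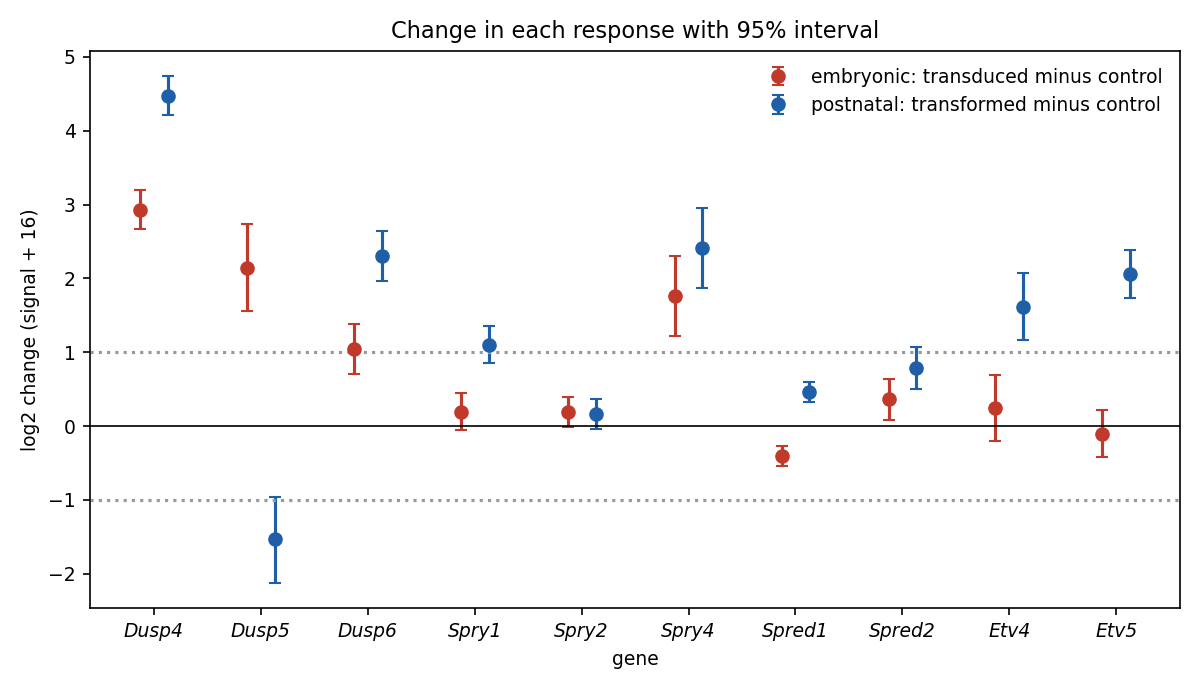
Log2 change of signal + 16 (vertical axis) of each gene in the embryonic response (transduced minus control) and the postnatal response (transformed minus control), with 95% intervals from the fit over all genes and 2-fold marked by dotted lines. Dusp4 has the largest change of the 10 in both responses (2.93 and 4.47), Dusp5 goes opposite ways (2.14 and -1.54), and the intervals of Spry2 include 0 in both.

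Dusp4, a nuclear phosphatase of ERK and of the stress kinases, changed most. Its signals were 19056, 19790, 22741, 22816 and 21323 on the 5 arrays of embryonic transduced cells, against 2800, 2824, 2723, 2504 and 2918 in embryonic control. They were 13932, 12435, 14628, 13308 and 13452 in postnatal transformed cells, against 495, 913, 689, 506 and 468 in postnatal control. All arrays of both modified groups lay far above all control arrays, and the 4 groups did not overlap at any step of their order. The log2 change was 2.93 ± 0.13 in embryonic cells (7.63-fold, limma adjusted p = 5.05e-14) and 4.47 ± 0.13 in postnatal cells (22.2-fold, adjusted p = 6.24e-17). By absolute size, the postnatal change ranked 64 among the 18193 genes.

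Dusp6, the cytoplasmic phosphatase selective for ERK, was already bright in every control array. It read 71763, 75893, 67464, 81445 and 72091 in embryonic transduced cells, against 38265, 33646, 35219, 35293 and 36502 in embryonic control. In postnatal transformed cells it read 48744, 50774, 56414, 54296 and 52487, against 9502, 16242, 15545, 7280 and 7618 in postnatal control. Both modified groups again lay wholly above their controls. The rise was 1.04 ± 0.16 in embryonic cells (adjusted p = 1.73e-05), close to the 2-fold threshold and under it (0.95) when arrays were centred on their 75th percentile, and 2.31 ± 0.16 in postnatal cells (adjusted p = 1.20e-10).

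Dusp5, the other nuclear phosphatase, did not follow Dusp4 and Dusp6 in postnatal cells. Its signals were 3857, 3210, 3988, 3432 and 2143 in embryonic transduced cells, against 776, 748, 985, 500 and 690 in embryonic control, a rise of 2.14 ± 0.28 (adjusted p = 1.70e-06). In postnatal transformed cells it read 50, 69, 59, 81 and 56, below background on all 5 arrays, against 266, 187, 369, 225 and 97 in postnatal control, above background on 4. The groups did not overlap and the fitted change was -1.54 ± 0.28 (adjusted p = 9.56e-05). Measured against the background level, however, the fall is only bounded, at least 1.39-fold, and a single probe set represents the gene.

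The RefSeq promoter windows of Dusp5 and Dusp6 are shown because these phosphatases changed in opposite directions in the postnatal response. Each runs from 250 bases before to 50 bases after the start of the gene, in the direction of transcription, in build GRCm38.p6. The window of Dusp5 is chr19:53528895-53529194 and that of Dusp6 is chr10:99262981-99263280, both on the plus strand. Capitals mark motif matches.
Dusp5: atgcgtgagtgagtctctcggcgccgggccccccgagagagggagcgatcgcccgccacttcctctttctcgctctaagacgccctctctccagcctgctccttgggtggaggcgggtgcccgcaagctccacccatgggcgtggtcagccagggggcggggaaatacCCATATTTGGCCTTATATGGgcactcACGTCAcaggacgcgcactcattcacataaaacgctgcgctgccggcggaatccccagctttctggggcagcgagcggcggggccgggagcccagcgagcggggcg
Dusp6: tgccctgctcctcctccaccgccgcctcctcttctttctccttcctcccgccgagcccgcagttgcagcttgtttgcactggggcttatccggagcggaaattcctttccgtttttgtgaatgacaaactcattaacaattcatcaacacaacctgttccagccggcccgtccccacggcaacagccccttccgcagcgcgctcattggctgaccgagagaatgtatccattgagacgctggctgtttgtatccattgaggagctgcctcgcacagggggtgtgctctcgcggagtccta
The motifs searched on both strands were the ETS core CCGGAA, the CRE core TGACGT, the AP-1 site TGANTCA, the TATA box TATAAA and, added after the windows had been read, the CArG box bound by serum response factor. Of 32851 windows of all genes, these were held by 14.9%, 7.51%, 7.81%, 13.6% and 1.63%. In Dusp5 adjoining CArG boxes began at positions -82 and -72 and a CRE core at -56, counted from the gene start, with no overlap between matches. None of the 5 motifs was found in the window of Dusp6. Of 8 windows for 7 of the 10 genes, the CArG box was in that of Dusp5 alone, the CRE core in those of Dusp5 and Spred2, the ETS core in that of Spry2, and the AP-1 site and TATA box in none. A match is a description of letters and not of binding.

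Among the Sprouty genes, Spry4 changed most and Spry2 least. Spry4 had signals of 20983, 22904, 18169, 18922 and 17698 in embryonic transduced cells, against 6065, 5029, 5829, 5343 and 6826 in embryonic control. It had 18324, 20935, 19455, 22568 and 20288 in postnatal transformed cells, against 4461, 8001, 5116, 2669 and 1604 in postnatal control. Both modified groups sat at nearly the same level, well clear of their controls, and the control groups overlapped with each other. This held for the brightest probe set: between the modified groups the other 3 were at -0.99 (5284 to 7110 in embryonic transduced and 2992 to 3152 in postnatal transformed cells, adjusted p = 0.00677 over all probe sets), -0.72 and -0.28, while the brightest was at 0.04. The rise was 1.76 ± 0.26 in embryonic cells (adjusted p = 8.47e-06) and 2.41 ± 0.26 in postnatal cells (adjusted p = 8.48e-08), or 1.83 without postnatal control arrays 4 and 5. All 4 probe sets of Spry4 rose in both responses, by 1.76 to 2.57 and by 2.13 to 2.41 for the 3 that were above background on all arrays.

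Spry1, which restrains growth factor signalling in many developing organs, was called in the postnatal response and not in the embryonic one. Its signals in postnatal cells were 16629, 15294, 14787, 15933 and 15443 in transformed cells, against 5256, 9208, 10010, 6496 and 6476 in control cells, a change of 1.10 ± 0.12 (adjusted p = 1.03e-07). Without postnatal control array 1 alone (0.98), or without arrays 4 and 5 (0.99), this was just under 2-fold. In embryonic cells it ran from 21677 to 26195 in the transduced group and from 19453 to 21964 in the control group, which overlap, with a change of 0.19 (95% interval -0.05 to 0.44, adjusted p = 0.228). The responses differed by 0.91 ± 0.17 (adjusted p = 0.000153), under 2-fold. Spry2 averaged 27393 ± 1718 in embryonic transduced cells and 23989 ± 2191 in embryonic control (SD, n = 5 each), then 17163 ± 1154 in postnatal transformed cells and 15527 ± 2900 in postnatal control. Its groups overlapped in both responses, and the 95% intervals of the change, -0.0082 to 0.40 in embryonic and -0.04 to 0.36 in postnatal cells, leave out a 2-fold change.

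The Spred genes varied within a narrow range. Spred1, an inhibitor that recruits neurofibromin, ran from 13182 to 15607 in embryonic transduced cells and from 18030 to 19388 in embryonic control, without overlap, and from 17757 to 22624 in postnatal transformed cells and from 14150 to 17099 in postnatal control, again without overlap. The changes were opposite in sign, -0.41 ± 0.07 (adjusted p = 2.84e-05) and 0.46 ± 0.07 (adjusted p = 5.41e-06), and neither reached 2-fold. The 6 probe sets of Spred1 above background on all arrays had changes of -0.46 to -0.24 and of 0.24 to 0.47. Spred2 averaged 13136 ± 696 in embryonic transduced cells and 10258 ± 898 in embryonic control, and 11126 ± 468 in postnatal transformed cells and 6679 ± 1975 in postnatal control (SD, n = 5 each). It differed by 0.36 ± 0.14 and 0.79 ± 0.14, below 2-fold in both, and its probe sets disagreed, with another of the 3 that were above background on all arrays at 1.19 in embryonic cells and at -0.28 in postnatal cells.

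Etv5 rose in the postnatal response and was nearly level in the embryonic one. In postnatal transformed cells it read 31405, 33566, 37533, 37150 and 33266, against 8191, 12541, 10717, 6612 and 5324 in postnatal control, a rise of 2.06 ± 0.15 (adjusted p = 2.90e-10). In embryonic transduced cells it read 22665, 19857, 19034, 17107 and 18753, against 22515, 20558, 20518, 20455 and 20420 in embryonic control, with a change of -0.11 ± 0.15 (95% interval -0.42 to 0.21, adjusted p = 0.654). Transformed postnatal cells thus held the highest level of the 4 groups and postnatal control the lowest, without overlap, while the embryonic groups overlapped. All 3 probe sets of Etv5 gave 2.06 to 2.44 in postnatal and -0.36 to -0.11 in embryonic cells.

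Etv4 was read by a pair of probe sets. The brighter one read 3712, 3905, 4777, 4421 and 4236 in postnatal transformed cells, against 1182, 2668, 1934, 763 and 991 in postnatal control, a rise of 1.61 ± 0.22 (adjusted p = 2.09e-06). In embryonic cells the groups overlapped, at 5409 ± 414 in transduced and 4579 ± 505 in control cells (SD, n = 5 each), with a change of 0.24 ± 0.22 (95% interval -0.21 to 0.70, adjusted p = 0.432). The dimmer Etv4 probe set disagreed: it was at 1.26 in embryonic cells (adjusted p = 0.000112 over all probe sets) and at 0.75 in postnatal cells.

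**Figure D3:**
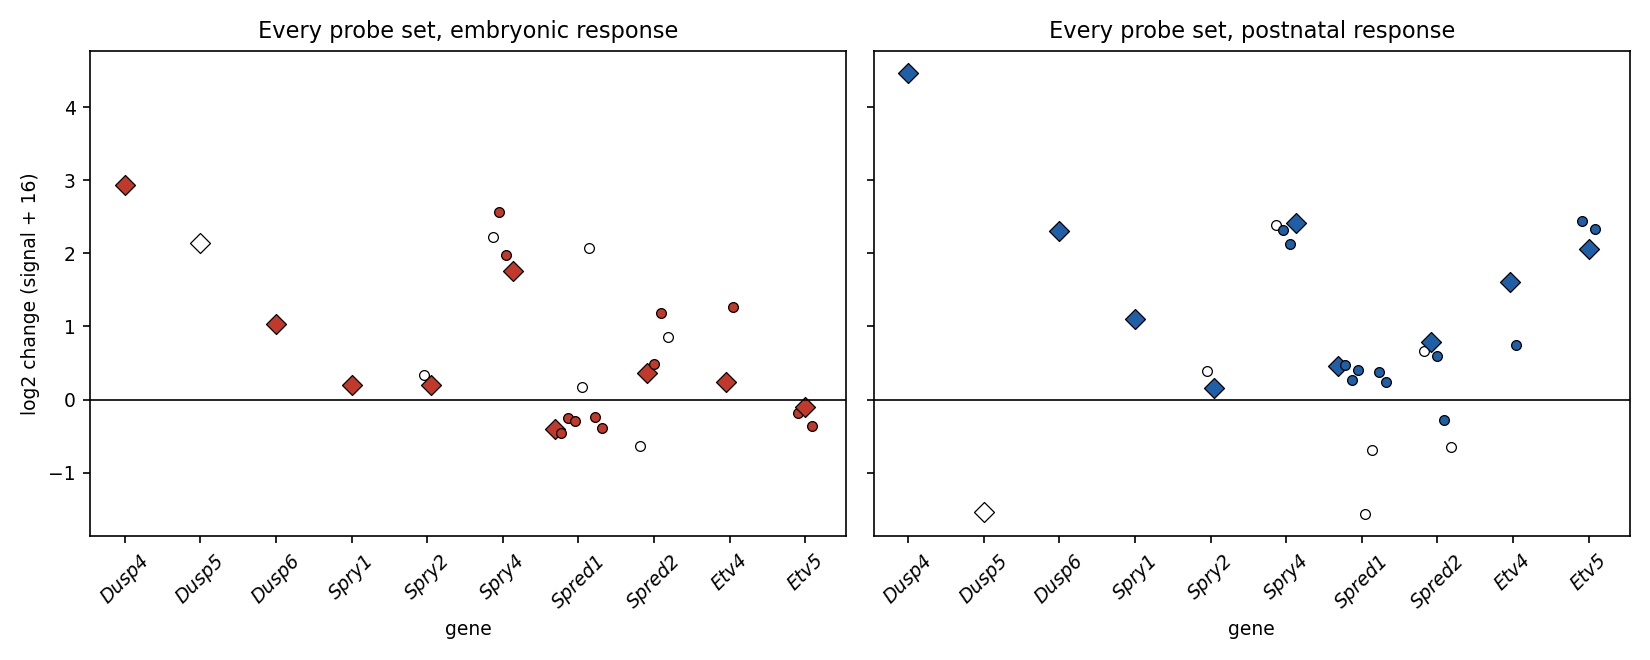
Log2 change of signal + 16 for each of the 28 single-symbol probe sets of the 10 genes, in the embryonic (left) and postnatal (right) response. Diamonds mark the probe set that represents the gene, and open symbols those not above background on all 20 arrays. Spry4, Etv5 and the bright Spred1 probe sets lie close together, whereas the Etv4 and Spred2 probe sets are spread in both responses.

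An interaction term, the postnatal change minus the embryonic change, compared the responses. The kind of modification cannot be told apart from age in it. Here 5 of the 10 genes were called, while 19.1% of all genes were, 9.36% as higher and 9.75% as lower. The postnatal change was higher for Etv5 (2.16 ± 0.22, limma adjusted p = 4.25e-08), Dusp4 (1.54 ± 0.18, adjusted p = 4.49e-07), Etv4 (1.37 ± 0.31, adjusted p = 0.000957) and Dusp6 (1.27 ± 0.23, adjusted p = 0.000109), and lower for Dusp5 (-3.68 ± 0.40, adjusted p = 1.27e-07), whose value rests on signals under background. With no fold threshold 7 of the 10 passed, Spry1 and Spred1 being added (38.9% of all genes). Without postnatal control arrays 4 and 5, Dusp6 (0.93) and Etv4 (0.95) no longer reached 2-fold, and the Etv4 call was also lost over the mean of its probe sets (0.43). For Spry4, which rose in both responses, the difference was 0.65 (95% interval -0.11 to 1.41, adjusted p = 0.18). The term equals the age difference in modified cells minus that in control cells, so the low postnatal control levels enter it too. In modified cells Dusp4 (-0.64), Dusp6 (-0.49) and Etv4 (-0.36) were lower in the postnatal group and Etv5 (0.83) was higher, all under 2-fold. In control cells the same genes were lower in the postnatal group, at -2.18, -1.75, -1.73 and -1.33 in that order.

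Between the control groups, the older cells had less of nearly every one of these transcripts. Postnatal control was lower than embryonic control in 6 of the 10 genes (Dusp4, Dusp5, Dusp6, Spry1, Etv4 and Etv5) and higher in none, while 10.6% of all genes were called, 4.86% as higher and 5.72% as lower. The largest difference was in Dusp4, with a mean signal of 614 ± 188 in postnatal control and 2754 ± 156 in embryonic control (SD, n = 5 each), a change of -2.18 ± 0.13 (limma adjusted p = 2.73e-11). Dusp6 followed at -1.75 ± 0.16, Etv4 at -1.73 ± 0.22, Dusp5 at -1.70 ± 0.28, Spry1 at -1.54 ± 0.12 and Etv5 at -1.33 ± 0.15. The dimmer Etv4 probe set disagreed here too, at -0.28 (limma adjusted p = 0.412 over all probe sets). The control groups did not overlap for 9 of the 10 genes, all 9 lower, against 22.2% of all genes (11.2% higher, 11% lower). By their brightest probe sets the same 9 passed with no fold threshold, against 32.0% of all genes, and Spry4 was the exception. The difference of Spry4, -0.61 ± 0.26 (adjusted p = 0.0811), was -0.03 without postnatal control arrays 4 and 5. The 6 genes called here were called with and without those arrays. Spred1 and Spred2 depended on processing, with limma adjusted p as high as 0.777 and 0.282 among the alternatives. Another Spred2 probe set above background on all arrays was at 0.58 (adjusted p = 0.078 over all probe sets). This comparison uses the same postnatal control arrays as the postnatal response, so the low control levels enter both. Cell markers differed between the control groups too. The astrocyte markers S100b (4.496), Gfap (3.65), Aqp4 (2.55) and Aldh1l1 (1.28) were called higher in postnatal control, and Slc1a3 (-0.64) was not called. Mag (2.86), Mbp (1.76), Cnp (1.17), Gad1 (3.58) and Pdgfra (2.62) were also called higher, and Nes (-1.94) and Rbfox3 (-1.18) lower. The part of cell make-up in the differences of the 10 genes was not tested.

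Between the modified groups the 10 genes differed far less. Only Dusp5 was called, 1 of 10, where 25.5% of all genes were called, 11.7% as higher and 13.7% as lower. It was at least 20-fold lower in postnatal transformed cells than in embryonic transduced cells (fitted adjusted p = 3.61e-13). The other 9 genes had differences between -0.67 (Spry2) and 0.83 (Etv5), all under 2-fold, although the groups did not overlap for 9 of the 10, 2 higher and 7 lower, against 46.6% of all genes (21.8% higher, 24.8% lower). With no fold threshold 7 of the 10 passed, against 52.1% of all genes. With the mean of all its probe sets Etv5 reached 1.12 and was called higher in postnatal transformed cells. Age and the kind of modification cannot be told apart in this comparison.

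**Figure D4:**
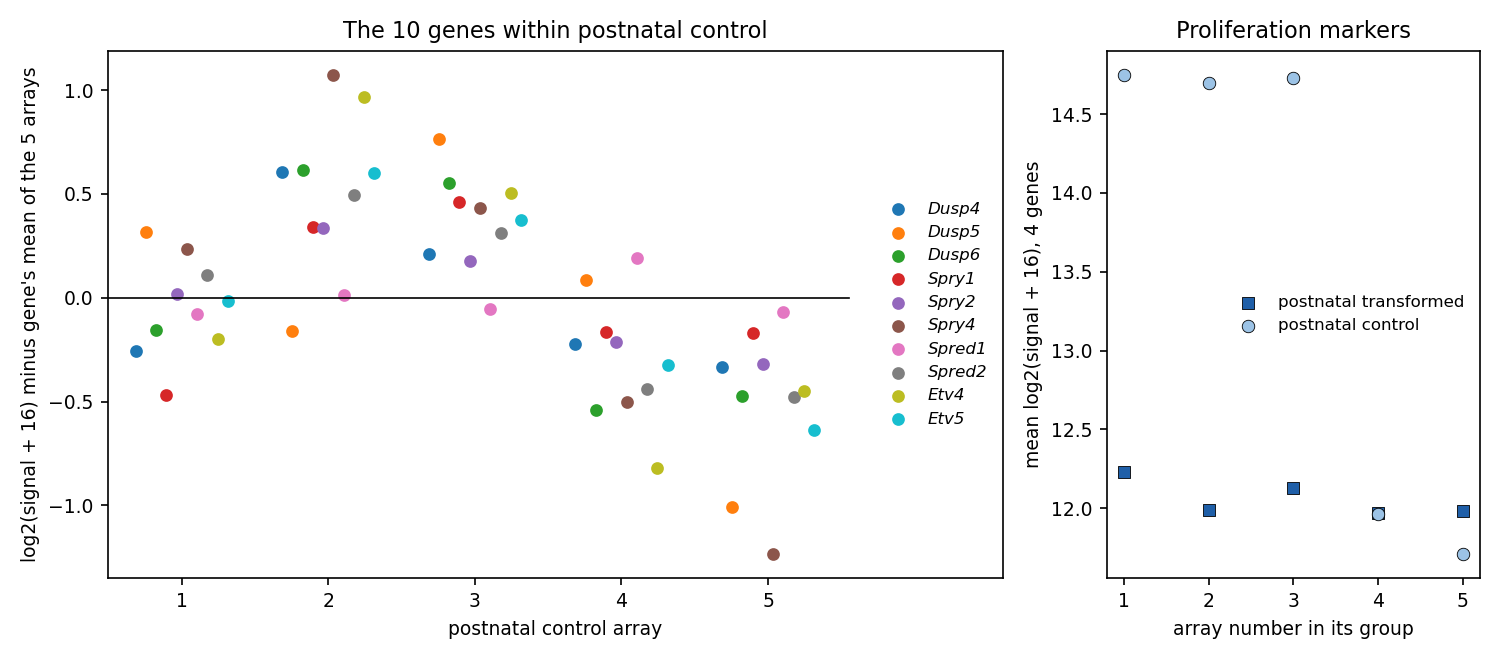
Left, log2(signal + 16) of each gene minus its mean over the 5 postnatal control arrays, by array, with 1 colour per gene. Right, mean log2(signal + 16) of 4 proliferation markers on each array of postnatal transformed and postnatal control cells. Arrays 4 and 5 of postnatal control have proliferation levels of 11.96 and 11.71, just below the transformed arrays, and 6 of the 10 genes have them as their lowest pair (not counted over all genes).

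Between the postnatal groups, the means of the proliferation markers and of the 10 genes differed in opposite directions. Within postnatal control both were lowest on arrays 4 and 5, at 11.61 and 11.39 for the 10 genes. The mean log2 of the proliferation markers lay between 11.97 and 12.23 on the postnatal transformed arrays, beside 11.71 to 14.75 in postnatal control. It lay between 14.62 and 14.80 in embryonic transduced cells, beside 14.84 to 14.95 in embryonic control. The mean log2 of the 10 genes was 13.18 to 13.38 in postnatal transformed and 11.39 to 12.39 in postnatal control cells. Within postnatal control, 6 of the 10 genes had arrays 4 and 5 as their lowest pair and 7 were highest on array 2, counts that were not made over all genes. The genes were mixed on array 1, which matched arrays 2 and 3 in proliferation markers. It read 9502 for Dusp6, nearer to arrays 4 and 5, and 5256 for Spry1, below them. Dusp4 (495) and Etv4 (1182) were also nearer to arrays 4 and 5. Spry2 (15509), Spry4 (4461) and Spred2 (6953) were nearer to array 3 (17333, 5116 and 8006). Of 5 astrocyte markers, 2 were lower in the embryonic response (Aldh1l1 at -1.97, Slc1a3 at -1.56). In the postnatal response 3 were lower (Gfap at -3.01, Aqp4 at -3.65, Aldh1l1 at -3.38) and S100b was higher (2.20). The astrocyte list had a mean log2 of 9.57 to 10.53 in postnatal transformed and of 10.10 to 12.92 in postnatal control cells, and summed signals of 36440 to 39090 and of 12040 to 51240. Of the 4 measured oligodendrocyte markers, Cnp was lower in both responses (-1.11 and -1.03), and Mbp (-1.45) and Mag (-2.75) were lower in the postnatal one. Summed oligodendrocyte signals were 27370 to 29650 in postnatal transformed and 36550 to 108300 in postnatal control cells. Of 6 neuron markers, 5 were lower and Gad1 higher (3.01) in the embryonic response, while in the postnatal one Tubb3 (1.73) and Syt1 (2.02) were higher and Rbfox3 (-2.91) and Snap25 (-1.60) lower. Log2 ratios of 3' to 5' Gapdh probe sets averaged -0.30 in embryonic transduced, -0.38 in embryonic control, -0.55 in postnatal transformed and -0.46 in postnatal control cells. The part of cycling, of other cell types and of RNA quality in the changes of the 10 genes was not tested.

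Of 62 further genes of the pathway, 57 were measured, each by its brightest probe set. In the embryonic response 10 were higher and 5 lower (median 0.29), and in the postnatal response 13 were higher and 6 lower (median 0.23). Over all genes the shares called were 14.4% (8.61% higher, 5.74% lower) in the embryonic and 16% (9.56% higher, 6.40% lower) in the postnatal response. Among 7 other dual-specificity phosphatases, Dusp1, an immediate early phosphatase of the stress kinases and ERK, rose in both responses, by 1.60 ± 0.10 and 1.13 ± 0.10. Dusp9, selective for ERK, had the same directions as Dusp5, with mean signals of 517 in embryonic transduced and 85.4 in embryonic control cells (below background on all 5 control arrays), and of 71.0, also below background, in postnatal transformed and 264 in postnatal control cells. The postnatal call of Dusp9 was lost without postnatal control arrays 4 and 5 (-1.11, limma adjusted p = 0.0559) and over the mean of its probe sets (-0.83, adjusted p = 0.188). Dusp8 fell in embryonic cells (171 in transduced, above background on 3 arrays, and 821 in control) and Dusp2 in postnatal cells (251 in transformed, above background on 3 arrays, and 457 in control).

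Of 7 other feedback inhibitors, only Il17rd was called, and it fell in both responses, a share close to that of all genes (14.4% and 16%). This membrane inhibitor of FGF signalling, also called Sef, fell by 1.47 ± 0.19 in embryonic and by 1.56 ± 0.19 in postnatal cells, and over the mean of its probe sets the postnatal change (-0.89) was under 2-fold. Of 8 measured ETS factors, Ets2 rose in both (1.68 ± 0.10 and 1.65 ± 0.10), Ets1 fell in embryonic cells (-2.42 ± 0.28) and Elk3, a partner of serum response factor, rose in postnatal cells (2.57 ± 0.19).

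Other known outputs of ERK were mixed, with 4 of 12 higher and 1 lower in embryonic and 6 higher and 2 lower in postnatal cells. Without postnatal control arrays 4 and 5 the postnatal counts were 4 higher and 1 lower, with Ccnd1 (0.98) among the 3 calls lost. The AP-1 genes Junb (3.84 ± 0.17) and Fos (1.73 ± 0.13) rose in embryonic cells and were not called in postnatal cells (-0.25 and -0.63). Epha2 (2.81 and 2.53) and Fosl1 (2.63 and 2.95) rose in both responses, from control signals near or below background. Ccnd1, cyclin D1, went opposite ways, at -1.91 ± 0.20 in embryonic and 1.47 ± 0.20 in postnatal cells. Phlda1 was at 0.93 ± 0.29 in embryonic cells, not called, and rose by 2.22 ± 0.29 in postnatal cells (1.48 without those arrays), where Ier3 rose by 3.75 ± 0.26. Egr1, an immediate early factor, was at 0.94 ± 0.12 in embryonic cells, under 2-fold, and fell in postnatal cells (-2.11 ± 0.12).

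Upstream, 11 of 15 listed cascade genes were measured. The adaptor Shc1 rose in both responses (1.16 ± 0.13 and 1.95 ± 0.13), and Map2k1, the kinase that activates ERK, was at 0.78 ± 0.07 in embryonic cells and rose by 1.63 ± 0.07 in postnatal cells. Of 12 receptors, Fgfr1 rose in embryonic cells (1.20 ± 0.14, against 0.58 ± 0.14 in postnatal cells) and Fgfr3 fell in postnatal cells (-1.43 ± 0.16, against 0.61 ± 0.16 in embryonic cells). Pdgfra fell in embryonic cells, with mean signals of 596 in transduced and 7629 in control cells, and was at -0.56 ± 0.19 in postnatal cells, with 31661 in transformed and 47465 in control cells. Erbb3 rose in postnatal cells by 4.45 ± 0.32. Met was called higher in both from control signals below background, at 222 in embryonic transduced and 248 in postnatal transformed cells, above background on 3 and 4 of 5 arrays. Fgfr2 (0.55 and 0.16) and Egfr (-0.45 and -0.52) were not called in either response by their brightest probe sets. Over the mean of its probe sets, however, Egfr was called lower in postnatal cells (-1.76, limma adjusted p = 4.2e-06).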

How the data were processed

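The deposited intensities, 1 linear signal for each of 45101 probe sets on 20 arrays, were used as the authors gave them; software, background correction and normalization were not given in the sources used here. On every array the mean, after trimming 2% at each end, was about 2500.01, as scaling by 1 factor gives. Array number limits precision. Gene names came from the supplied platform annotation, and a gene was represented by the brightest (in mean log2) of its single-symbol probe sets. Limma 3.58.1 (lmFit, eBayes with trend) in R 4.3.3 was fitted to log2(signal + 16) with 4 group means over 20 arrays, two-sided, for 18193 genes. In simulated data it recovered 68 of 100 log2 changes of 1.5 and 98 of 100 of 3, with 7 false calls. Missed genes of size 1.5 had a median within-group SD of 0.877, against 0.234 for those found. An uncalled gene is therefore not shown to be unchanged. No 2 arrays were identical. Numbers in the sample titles did not pair samples (correlations of deviations -0.05 to 0.03), so they were not a block. All 10 members were described whatever their value, and pathway genes were named by smallest adjusted p or from a short list. Members and lists were chosen with earlier results of these data known. Promoter windows are from RefSeq (GRCm38.p6); 3 of the 10 genes had none among those used here.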

Additional observations from a re-analysis of the deposited data

Results flagged for a closer look

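The responses to modification differed between embryonic and postnatal cells for 5 of the 10 genes, by the interaction term of the limma fit (postnatal minus embryonic change): Dusp4 by 1.54, Dusp5 by -3.68, Dusp6 by 1.27, Etv4 by 1.37 and Etv5 by 2.16 on the log2 scale. Of all genes, 19.1% were called in this test. The value of Dusp5 rests on signals below background, and Dusp6 (0.93) and Etv4 (0.95) fell short of 2-fold without postnatal control arrays 4 and 5, which left 3 of the 10. Over the mean of its probe sets Etv4 was at 0.43. Low postnatal control levels enter this term. Between the modified groups Dusp4 (-0.64), Dusp6 (-0.49) and Etv4 (-0.36) were lower in postnatal transformed cells and Etv5 (0.83) was higher, all under 2-fold. Array 1 of embryonic control stood above its 4 companions for Etv5, at 22515, with a gap of 0.931 of the range of the group, and for Spred1, at 19388, with a gap of 0.759. A gap above 0.71, the cutoff used, arises by chance in about 1 in 20 groups, and 40 groups of 5 arrays were examined.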

How the results depend on the processing

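No call of the 10 genes changed direction under any alternative, and counts of called members and of all called genes changed by at most 1.5 times with another offset (1 or 64), quantile normalization, 75th percentile centring, a filter on dim genes, a fit of the compared groups alone or no intensity trend. With the replicate block 4, 7, 5, 1 and 6 of the 10 genes were called in the embryonic response, the postnatal response, their difference, the modified and the control cells by age, the same counts as without it. The members called numbered 2 between the modified groups with the mean of all probe sets, 7 there with no fold threshold, and 3 in the difference of responses without postnatal control arrays 4 and 5. Testing each probe set separately, 5137, 5650, 7054, 9148 and 3464 probe sets were called in the same order of comparisons; with no fold threshold, 7162, 7692, 7083, 9479 and 5830 genes were. Uncalled values changed sign for Spry2 in the difference (0.080 after 75th percentile centring, 0.014 with the mean of probe sets, -0.111 to 0.052 on leaving out single arrays) and in the postnatal response (-0.016 without arrays 4 and 5), and for Spry4 between modified groups (-0.023 after quantile normalization, -0.48 with the mean). With the mean of probe sets they also did for Spred1 (0.024, -0.0048, -0.028 and -0.091 in the first 4 comparisons) and Spred2 (-0.23 in the difference), where dim probe sets enter the mean. Leaving out single arrays gave 4, 6 to 7, 5 to 6, 1 and 6 members called; the extra call was Spry1 (1.02) without postnatal control array 3. Quantile normalization took the median of all genes between modified groups to 0.0011, against -0.14 as deposited. Genes near background, here Dusp5, Dusp9 and Met, are limited by signal.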

Other observations

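Spry2 lies on chromosome 14, whose genes were lower as a group in postnatal transformed cells. On this chromosome, 354 genes whose mean signal exceeded 500 had a median log2 change of -0.86 in the postnatal response and 0.05 in the embryonic response. Spry2 stood at 0.16 and 0.19 in those comparisons.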
